A study of Mus musculus with 17 samples.

Results

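The 8 enzymes examined here carry tryptophan along the kynurenine pathway towards NAD: Tdo2, Afmid, Kmo, Kynu, Aadat, Haao, Acmsd and Qprt. They were chosen by name as rows of a count table of 55487 mouse gene identifiers, and all 8 were found in it. Transcripts had been counted by 3′ end sequencing, which reads the end of each polyadenylated transcript, so that long and short transcripts are counted alike. One library came from the kidney of each of 17 male mice aged 16 weeks on the BKS background. The 8 db/m animals were heterozygous for the leptin receptor mutation Leprdb, and the 9 db/db animals were homozygous for it. Animals with 2 Leprdb copies lack the long leptin receptor and become obese and diabetic, while db/m animals serve as lean controls. No treatment is given. Groups follow the sample titles. The genotype field contradicts the titles in all 17 samples, and were it the correct one, each direction given below would be inverted. The db/m libraries carry the first library numbers and the db/db libraries the later ones, so a handling difference that follows those numbers and the genotype cannot be told apart.

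In mammals most tryptophan that is not built into protein is broken down through kynurenine. Tryptophan is opened by Tdo2, Ido1 or Ido2, and kynurenine is then hydroxylated, cleaved or transaminated before the ring of 3-hydroxyanthranilate is opened to a compound that either closes to quinolinate, a precursor of NAD, or is decarboxylated and burned. Liver and kidney proximal tubule are the organs best known for the later steps, and several of the intermediates act on the immune system, the aryl hydrocarbon receptor or glutamate receptors.

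The listed enzymes were proposed after the difference between db/db and db/m in these same libraries was known. Their levels and fold changes in that contrast are therefore given as a description, without a test, and the count of enzymes past the threshold supports nothing by itself. Levels are CPM, the counts scaled to a common library size with TMM factors, and a positive log2 fold change means more in db/db, with a standard error (SE) and 95% interval. A gene is called where edgeR's quasi-likelihood test gave a Benjamini-Hochberg adjusted p under 0.05 over all 12131 genes with enough counts to test.

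Libraries held 3256427 to 7627747 gene counts, and 3 counts, taken as the limit of detection, corresponded to 0.380 to 0.929 CPM. The tissue label was checked with markers: genes of the first proximal tubule segments summed to 5990 to 9830 CPM in every library. Of 6 adrenal markers, which summed to 0.899 to 3.94 CPM in db/m and 1.32 to 5.28 in db/db, Cyp11b2 and Cyp21a1 were at 0 counts in all libraries, while Star was above 0 in all of them and Hsd3b1 in most. The protocol mentions plated cells, although the samples are labelled as kidney. Libraries db/m replicates 4 and 8 and db/db replicates 7 and 8 lay farthest from the median on the first principal component, which held 32.8% of the variance. Taking 4 was a choice and no gap set them off. On that component db/db replicate 1 was at -40.65, nearly as far out as db/m replicate 4 at -41.93. Of 7 markers of the last proximal segment, S3, 6 fell in db/db (summed level 5260 to 7110 CPM in db/m, 1710 to 3050 in db/db), and 6 of 6 collecting duct markers rose (265 to 883 and 683 to 1610 CPM). Of 8 tested macrophage markers 1 fell, Ptprc, and none rose (200 to 386 CPM in db/m, 109 to 335 in db/db, summed over 10 genes). Of 4 tested liver markers 2 rose (46.5 to 88.7 CPM in db/m, 59.4 to 134 in db/db, summed over 9 genes); Alb, Apoa1, Apoa2, Apoc3 and Serpina1a were above 0 in every library and Tat was at 0 in all. In whole kidney, fewer cells of a type and less RNA per cell cannot be told apart, and the part of these shifts in the values below was not tested.

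The regions upstream of 4 of the enzymes are shown because, with all libraries, Haao varied together with Qprt and Afmid and opposite to Aadat. Those correlations are given below, and some of them were near 0 without the 4 libraries farthest out on the first principal component. Each run holds the 250 bases before the RefSeq start site in build GRCm38.p6, on the gene's own strand. Capitals mark any match, on either strand, to AGGTCA (a nuclear receptor half-site), GTTAAT (an HNF1 half-site), GGGCGG (a GC box) or GCGTG (the core bound by the aryl hydrocarbon receptor).
Haao (chr17:83846791-83847040, minus strand): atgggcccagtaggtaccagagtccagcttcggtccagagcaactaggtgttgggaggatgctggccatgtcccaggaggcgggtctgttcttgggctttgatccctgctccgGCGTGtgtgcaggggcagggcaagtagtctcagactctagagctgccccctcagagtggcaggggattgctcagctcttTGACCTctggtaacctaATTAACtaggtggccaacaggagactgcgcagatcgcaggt
Qprt (chr7:127122030-127122279, minus strand): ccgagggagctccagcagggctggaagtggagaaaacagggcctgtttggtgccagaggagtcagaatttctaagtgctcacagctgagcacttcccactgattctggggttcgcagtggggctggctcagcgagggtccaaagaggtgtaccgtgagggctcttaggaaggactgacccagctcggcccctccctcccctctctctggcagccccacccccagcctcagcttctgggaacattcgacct
Afmid (chr11:117825669-117825918, plus strand): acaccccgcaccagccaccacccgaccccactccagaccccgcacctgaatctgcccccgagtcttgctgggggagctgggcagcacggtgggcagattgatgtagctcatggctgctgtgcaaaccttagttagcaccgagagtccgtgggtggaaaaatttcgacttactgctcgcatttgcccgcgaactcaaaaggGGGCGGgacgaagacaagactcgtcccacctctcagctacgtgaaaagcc
Aadat (chr8:60505874-60506123, plus strand): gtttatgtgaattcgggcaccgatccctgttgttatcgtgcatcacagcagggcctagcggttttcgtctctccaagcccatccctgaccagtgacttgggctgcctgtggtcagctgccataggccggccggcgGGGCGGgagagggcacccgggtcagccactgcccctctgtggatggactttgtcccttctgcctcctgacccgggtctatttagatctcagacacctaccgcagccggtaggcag
Haao held AGGTCA and GTTAAT, at 58 and 41 bases before the start, both read from the opposite strand and written in the run as TGACCT and ATTAAC, and it held GCGTG further upstream. Afmid and Aadat each held 1 GGGCGG, and Qprt held no match to the 4 motifs. Of the 3 other enzymes with an entry, whose runs are not printed, Acmsd and Tdo2 also held AGGTCA, Tdo2 held GCGTG, and Kmo held no match. Of 32851 upstream regions of the same length, 14.0% held AGGTCA, 6.43% GTTAAT, 32.7% GGGCGG and 28.2% GCGTG. GC content was 58.4% for Haao, 60.8% for Qprt, 59.6% for Afmid and 61.2% for Aadat, against a median of 52.4% over all regions. RefSeq entries were found for 7 of the 8 enzymes, all but Kynu. These letters are a description of the windows and say nothing of which factors bind there.

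Tdo2, the tryptophan dioxygenase of liver, reached 1 count in the sum of the 8 db/m libraries and 3 in that of the 9 db/db libraries, and was at 0 in 7 db/m and 8 db/db libraries. At this depth no fold is given for it, and of the 8 enzymes it is the 1 that did not pass the filter on low counts. Afmid, the formamidase that releases free kynurenine (chromosome 11), lay at a lowest, median and highest level of 7.47, 14.7 and 16.9 CPM in db/m against 10.5, 13.3 and 24.2 in db/db. The groups overlapped across most of that range, with the lowest value in db/m replicate 8 and the highest in db/db replicate 8. Its log2 fold change was 0.06 (SE 0.18, 95% interval -0.31 to 0.42).

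Kynurenine itself has 3 fates in this list. Kmo, the mitochondrial hydroxylase that makes 3-hydroxykynurenine (chromosome 1), had a lowest, median and highest level of 49.9, 53.1 and 64.1 CPM in db/m against 37.0, 50.2 and 66.7 in db/db. In db/db 4 values were under the lowest of db/m and 1 was over the highest, so that db/db was the wider group, at 49.2 ± 10.1 CPM against 54.8 ± 5.0 (SD, n = 9 and 8). Its log2 fold change was -0.16 (SE 0.12, 95% interval -0.40 to 0.09), an interval that runs from 0.757-fold to 1.06-fold. Aadat, an aminotransferase that turns kynurenine into kynurenic acid (chromosome 8), was the most scattered by its biological coefficient of variation, with 28.6, 47.0 and 99.2 CPM in db/m against 15.5, 62.5 and 77.7 in db/db. Both groups spread widely, with db/m replicates 2 and 4 high and db/db replicates 7 and 8 low. Its log2 fold change was -0.02 (SE 0.29, 95% interval -0.62 to 0.57), or 0.65-fold to 1.49-fold.

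Kynu, the vitamin B6-dependent kynureninase (chromosome 2), was the enzyme that stood apart. It cleaves kynurenine to anthranilate and 3-hydroxykynurenine to 3-hydroxyanthranilate, the step that feeds the branch to NAD. Its counts per library were 2 to 16 in db/m and 26 to 78 in db/db. The lowest, median and highest levels were 0.463, 1.92 and 3.41 CPM in db/m against 5.38, 11.5 and 14.0 in db/db. All 9 db/db libraries lay above all 8 db/m libraries, and the db/db library nearest to db/m was replicate 8. The mean went from 1.84 ± 1.02 to 11 ± 2.86 CPM (SD), a log2 fold change of 2.55 (SE 0.29, 95% interval 1.95 to 3.16), or 5.87-fold (3.86 to 8.94). The coefficient of variation was 55.6% in db/m, where some libraries were near the limit of detection, and 26.1% in db/db. Of the 7 enzymes tested, Kynu was called, as higher, and the other 6 were not. Of the 7, only Kynu had groups that did not overlap. With so few counts in db/m, Kynu passed the filter on low counts through its db/db libraries, so its call and separation remain a description. Over all genes tested, 7.39% were called, 3.91% as higher and 3.49% as lower in db/db, and 1.78% had groups that did not overlap.

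**Figure D1:**
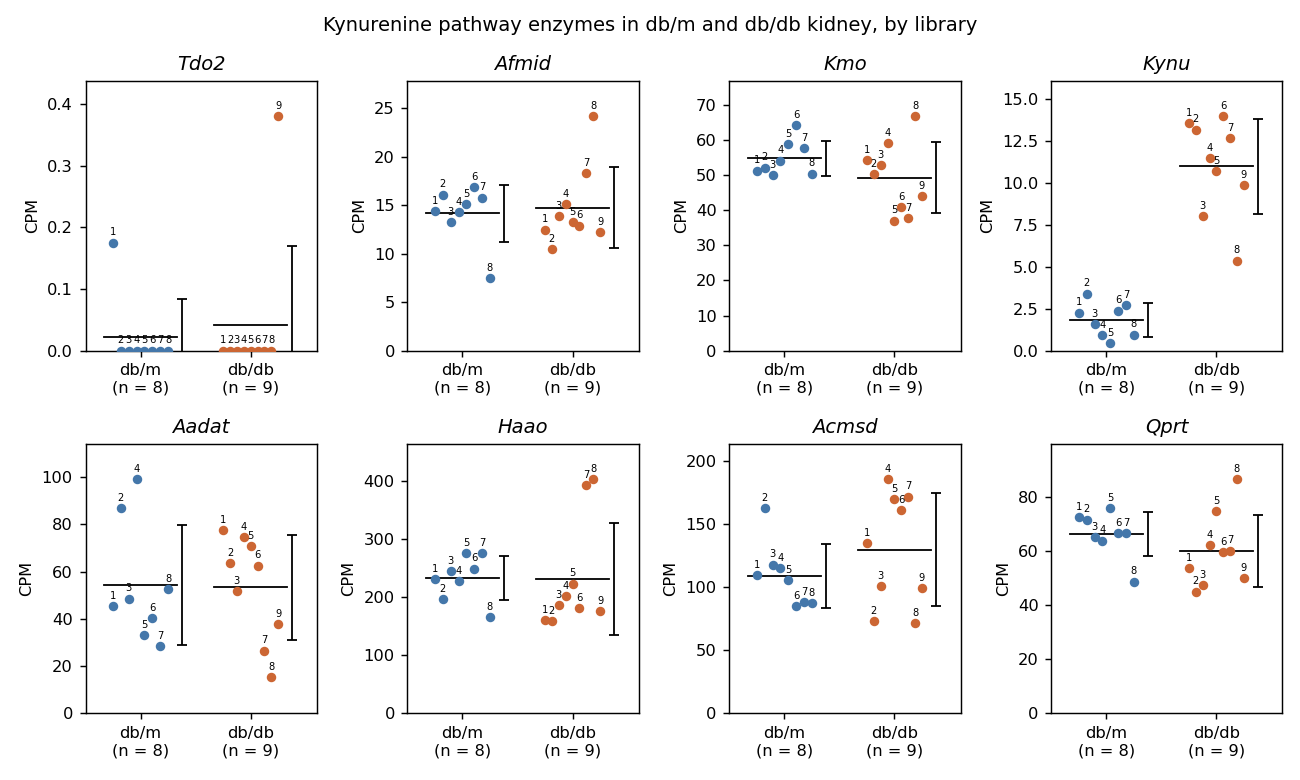
CPM of each of the 8 enzymes in every library of db/m (blue, n = 8) and db/db (orange, n = 9). Numbers are replicates, horizontal lines are group means and bars beside them are ± 1 SD; each panel has its own axis from 0. Kynu is the panel in which the groups do not overlap, with db/m at 0.463 to 3.41 CPM and db/db at 5.38 to 14.0 CPM.

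Kmo and Aadat both act on kynurenine, which Kynu also cleaves. Their counts were therefore set against those of Kynu within each library, where library scaling drops out. Because Kynu also cleaves the product of Kmo, Kynu and Kmo are in part consecutive steps, and their ratio does not describe a branch point alone. The ratio of Kynu to Kmo counts was 0.00787 to 0.0654 in db/m (median 0.0344) and 0.0807 to 0.342 in db/db (median 0.251). Kynu to Aadat was 0.00932 to 0.0952 in db/m and 0.150 to 0.477 in db/db. Neither ratio overlapped between the groups, and db/db replicate 8 had the lowest Kynu to Kmo ratio of db/db. Kynu CPM alone already separated the groups, so these ratios are no further result and remain a description. Kynu thus went from a small fraction of the counts of Kmo and of Aadat to a larger one, but stayed below both in all 17 libraries. The Kmo counts are uncertain because of the overlapping gene given below. Transcript numbers are not enzyme activity, and no metabolite was measured here.

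Haao, which opens the ring of 3-hydroxyanthranilate (chromosome 17), had the highest CPM of the list. It was at 166, 238 and 276 CPM in db/m against 158, 186 and 403 in db/db (lowest, median, highest). The db/db group fell into 2 sets: replicates 7 and 8 had 393 and 403 CPM, above every db/m library, and the other 7 had 158 to 223 CPM, below the db/m median. With all libraries this gave a log2 fold change of -0.01 (SE 0.19, 95% interval -0.41 to 0.38). The fit was also run without the 4 libraries farthest out on the first principal component, a setting chosen after seeing the data. Haao was then at 246 ± 29.9 CPM in db/m (SD, n = 6) and 184 ± 22.9 in db/db (n = 7), with a log2 fold change of -0.42 (SE 0.10). It was then called as lower, and the number of enzymes called was 2. The same setting turned the direction of Afmid (from 0.06 to -0.24) and Aadat (from -0.02 to 0.41) and moved Qprt from -0.15 to -0.31, none of them called. In db/db replicates 7 and 8 the mitochondrially encoded genes took 25.4% and 22% of the counts, the lowest shares of the 17 libraries, and the part of this in the Haao values was not tested.

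The product of Haao is shared between 2 routes. Acmsd (chromosome 1) decarboxylates it away from NAD, and it was at 85.1, 108 and 163 CPM in db/m against 71.6, 135 and 186 in db/db. In db/db 3 libraries were above all db/m libraries and 2 were below all of them, with a log2 fold change of 0.25 (SE 0.19, 95% interval -0.15 to 0.65). Qprt (chromosome 7) makes nicotinic acid mononucleotide from quinolinate, the route that leads on to NAD. It was at 48.7, 66.6 and 75.7 CPM in db/m against 45.0, 59.6 and 86.6 in db/db, and 7 of 9 db/db libraries lay below the db/m median. Its log2 fold change was -0.15 (SE 0.13, 95% interval -0.41 to 0.12).

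The ratio of Acmsd to Qprt counts, which sets the route away from NAD against the route to it, was 1.28 to 2.28 in db/m (median 1.65) and 0.828 to 3.0 in db/db (median 2.28). It was 1.65 ± 0.337 and 2.21 ± 0.680 (SD), and the groups overlapped. The lowest ratio of all 17 libraries was that of db/db replicate 8, the library that also had the most Haao and the least Aadat. Without that library the db/db values began at 1.63, close to the db/m median.

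**Figure D2:**
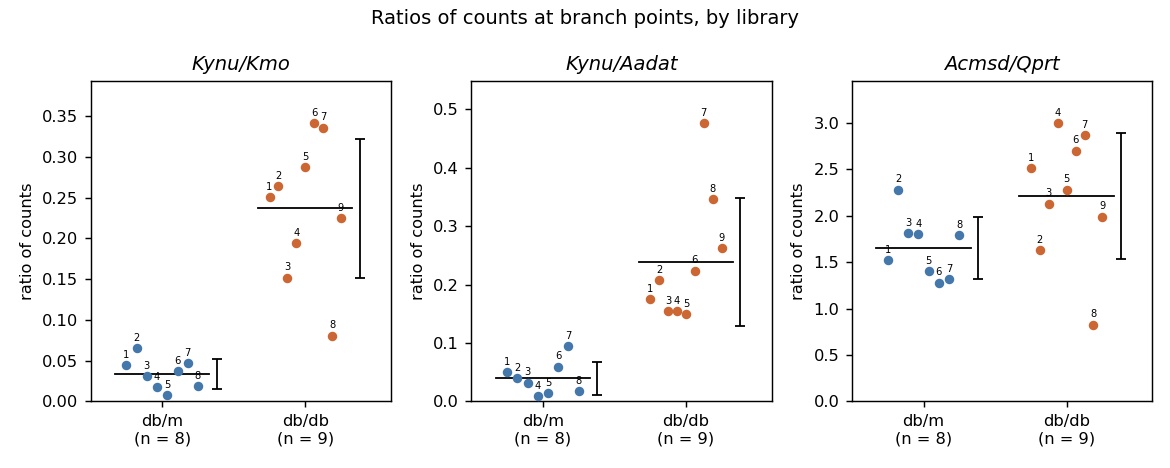
Ratios of counts within each library for Kynu to Kmo, Kynu to Aadat and Acmsd to Qprt in db/m (blue, n = 8) and db/db (orange, n = 9). Numbers are replicates, lines are means and bars ± 1 SD, and axes start at 0. The groups are separate for Kynu to Kmo (at most 0.0654 in db/m, at least 0.0807 in db/db), as for Kynu CPM alone. They overlap for Acmsd to Qprt.

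By CPM, the order of levels in db/m was Haao, Acmsd, Qprt, Kmo, Aadat, Afmid and Kynu. Although 3′ counting does not scale with length, how fully the reads of each gene were captured and assigned was not tested. The order is therefore one of counts and may differ from that of transcript numbers. The places of Kmo and Afmid are also uncertain because of the overlapping genes given below. Haao exceeded Acmsd, and Acmsd exceeded Qprt, in 8 of 8 db/m libraries with ranges that did not overlap. Qprt exceeded Kmo in 7 of 8 and Kmo exceeded Aadat in 5 of 8, with overlapping ranges, so the middle 3 were not ordered beyond their spread. In db/db Haao exceeded Acmsd in 9 of 9 libraries, and Qprt, Aadat and Kmo could not be ordered. Afmid exceeded Kynu in all 8 db/m libraries but in 6 of 9 db/db libraries, with overlapping ranges. All 8 transcripts together summed to 413 to 590 CPM in db/m (median 538) and 414 to 721 CPM in db/db (median 532). Of that sum Kynu held 0.343% ± 0.177 in db/m and 2.09% ± 0.703 in db/db (SD), and Haao 43.7% ± 5.87 and 41.1% ± 9.78.

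Read as a list, 1 of 7 tested enzymes was called higher and 0 lower, where 3.91% of all genes tested were called higher and 3.49% lower. The median log2 fold change was -0.01, against 0.0033 over all genes tested. The biological coefficient of variation was lowest for Kmo (17.4%) and Qprt (19.0%) and highest for Aadat (40.8%), with a median of 24.0% over all genes. Reads of an enzyme and of a gene on the opposite strand cannot be separated without the strand setting. Kmo, with 4075 counts over the 17 libraries, overlaps fumarate hydratase Fh1, which had 3588. Afmid, with 1128 counts, overlaps thymidine kinase Tk1, which had 877, so the values of Kmo and Afmid are uncertain. Acmsd, with 9095 counts, overlaps 2900009J06Rik, which had 31. Kynu, Haao, Qprt, Tdo2 and Aadat overlapped no other gene of GENCODE M21.

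Within each group the enzymes did not vary together as one set. Haao and Afmid went together (Pearson's r of log2 CPM 0.74 in db/m, n = 8, and 0.92 in db/db, n = 9), as did Haao and Qprt (0.70 and 0.70) and Qprt and Afmid (0.88 and 0.75). Haao and Aadat went in opposite directions (-0.59 and -0.83). These values describe libraries that share their depth and scaling, and they lean on the 4 libraries farthest out on the first principal component. Without those 4, r of Haao with Afmid was -0.07 in db/m (n = 6) and 0.69 in db/db (n = 7), Haao with Qprt -0.11 and 0.82, Qprt with Afmid 0.03 and 0.54, and Haao with Aadat -0.97 and 0.15. The first principal component over all libraries followed the same axis, with r of 0.87 and 0.88 for Haao and -0.86 and -0.91 for Aadat in db/m and db/db.

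**Figure D3:**
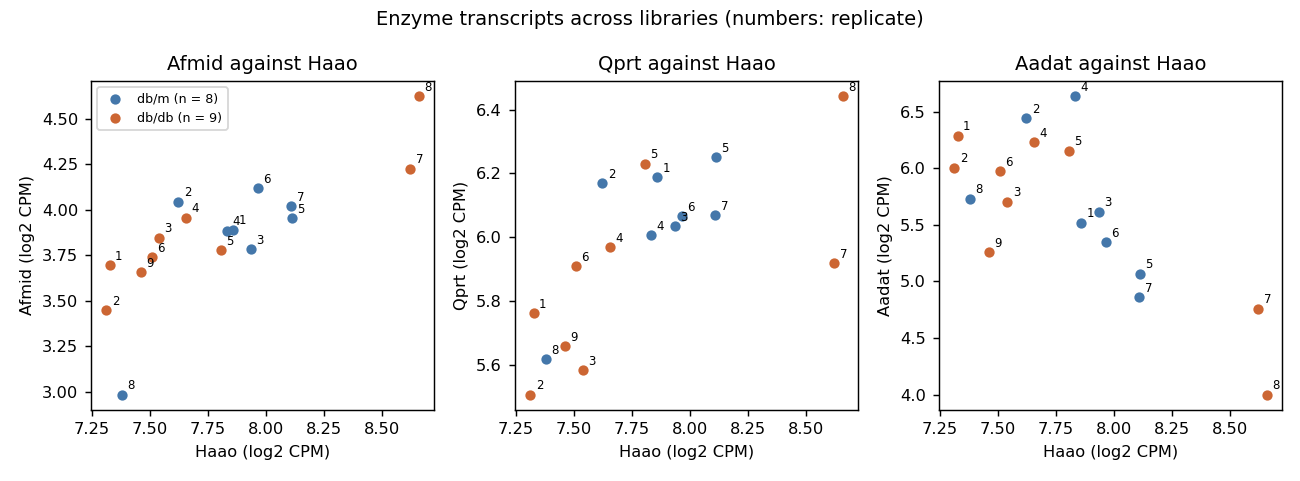
Log2 CPM of Afmid, Qprt and Aadat against Haao in each library, db/m in blue (n = 8) and db/db in orange (n = 9), with replicate numbers. Afmid and Qprt tend to be high where Haao is high and Aadat low, and db/db replicates 7 and 8 have the most Haao.

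For Kynu the same measure was taken against each of the others. With Kmo, Haao, Acmsd, Qprt, Afmid and Aadat its r was 0.01, -0.02, 0.23, 0.22, 0.42 and 0.03 in db/m, where its counts were low. In db/db the same values were -0.54, -0.51, 0.55, -0.49, -0.68 and 0.69. Without db/db replicates 7 and 8 (n = 7) they were -0.03, -0.40, 0.18, 0.13, -0.40 and 0.56. After subtracting group means, the genes most like Kynu over the 17 libraries, out of 10224 named genes whose mean log2 CPM was 2 or more, were Fgfr4 (r = 0.80), Blcap (0.77), Sh3pxd2b (0.77), C2cd2l (0.75) and Gatc (0.73). None of these 5 was called between the groups. They are the highest of 10224 values, no chance level was computed, and Kynu counts were low in db/m. They are therefore not shown to be partners of Kynu. Applied afterwards to Haao, the same rule gave higher values: Stard10 (0.97), Isoc2a, Txn2 and the dicarboxylate transporter Slc13a3 (0.96 each), and Ndufa2 (0.95). Haao followed the first principal component (r of 0.87 in db/m and 0.88 in db/db), on which db/db replicates 7 and 8 lay far out. These values were not taken again without those libraries.

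Genes around the pathway, 59 in 6 lists written by role, give its setting. Of 43 with enough counts to test, 4 rose and 1 fell (5 of 43 called, where 7.39% of all genes were). Their median log2 fold change was -0.01. The lists were compiled with earlier results of these data known, so these counts are a description too. With 1 library left out the number called was as low as 3 (without any one of replicates 1, 2, 3, 4 and 6 of db/m and 3, 4, 5, 7 and 9 of db/db) or as many as 10 (without db/db replicate 1).

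Upstream of the pathway, 2 of 6 tested genes of tryptophan uptake and its other fates rose. Ddc, the decarboxylase that makes serotonin and dopamine from their amino acid precursors, was at 61.1, 74.3 and 121 CPM in db/m against 124, 228 and 276 in db/db (lowest, median, highest), with no overlap. Its log2 fold change was 1.38 (SE 0.16; edgeR adjusted p = 6.93e-06). Slc6a19, the sodium-coupled transporter that takes up tryptophan and other neutral amino acids at the brush border, was at 113, 175 and 268 CPM in db/m against 218, 342 and 425 in db/db. The groups overlapped at their edges, with a log2 fold change of 0.93 (SE 0.16; edgeR adjusted p = 0.000461). Its partner Cltrn, which carries it to the membrane, was at 660 ± 76.8 and 639 ± 142 CPM (log2 fold change -0.05, SE 0.13). The basolateral aromatic amino acid transporter Slc16a10 was at 26.9 ± 5.76 and 34.4 ± 10.9 CPM (0.35, SE 0.17; edgeR adjusted p = 0.253).

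Ido2, a dioxygenase of the first step beside Tdo2, had 182 counts in the sum of the db/m libraries, 54 in that of the db/db libraries, and did not pass the filter on low counts. Its lowest, median and highest levels were 1.85, 4.71 and 8.09 CPM in db/m against 0.414, 1.52 and 2.01 in db/db. Of 8 db/m libraries, 7 lay above every db/db library. In a fit of all 25107 genes with at least 1 count, Ido2 fell by 1.80 on the log2 scale in db/db (SE 0.34, 95% interval -2.51 to -1.09; edgeR adjusted p = 0.00146). Leaving out each library in turn from that fit gave -1.92 to -1.65 with an adjusted p of 0.000589 to 0.00607, and DESeq2 gave -1.82 (adjusted p = 2.56e-05). The call is thus absent from the main table because of the filter. Without the filter 823 of the 25107 genes were called, and Ido2 was named after its values were seen. Ido1, the interferon-induced dioxygenase, had a single count, in db/m. Ido2 was the opening enzyme with the most counts in these libraries, and it was lower in the group in which Kynu was higher. Ptprc, the leukocyte marker that fell, was at 10.4 ± 2.73 CPM in db/m against 3.65 ± 0.840 in db/db. It was the only 1 of 8 tested macrophage markers that was called, though 0 of the 8 had a positive fold change. Of 7 markers of the S3 segment, 6 fell as well. The part of leukocytes or of S3 cells in the Ido2 values was not tested.

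**Figure D4:**
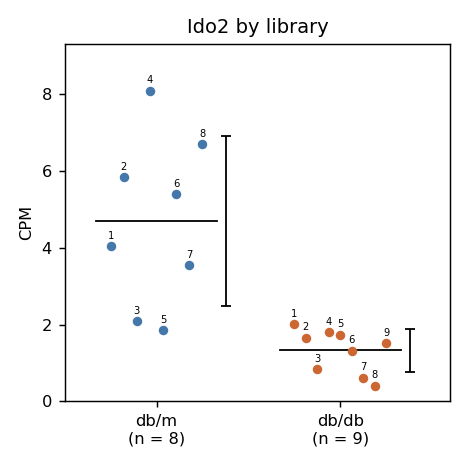
CPM of Ido2 in each library of db/m (blue, n = 8) and db/db (orange, n = 9), with replicate numbers, group means (lines) and ± 1 SD (bars) on an axis from 0. Of the 8 db/m libraries, 7 lie above the highest db/db value of 2.01 CPM.

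On the side branches 1 of 10 tested genes rose and 1 fell. Kyat1 and Got2 are aminotransferases that, like Aadat, can form kynurenic acid. Kyat1 went from 92.9 ± 13.7 to 68.7 ± 14.7 CPM (log2 fold change -0.44, SE 0.13; edgeR adjusted p = 0.0473) and Got2 from 285 ± 53.9 to 387 ± 76.5 CPM (0.44, SE 0.13; adjusted p = 0.0463). Both lie at the threshold. The call of Got2 was kept in 4 of 17 fits that left out 1 library (those without replicates 5 or 7 of db/m and 1 or 2 of db/db), and that of Kyat1 in 5 (those without replicates 7 or 8 of db/m and 1, 6 or 8 of db/db). Over all alternatives the adjusted p ran from 0.0206 to 0.248 for Got2 and from 0.0197 to 0.103 for Kyat1. Aldh8a1, which takes up the product of Acmsd, was at 203 ± 40.4 and 171 ± 39.3 CPM (-0.24, SE 0.14). The most abundant uncalled gene over both groups together was Dlst, at 195 ± 18.3 and 202 ± 45.1 CPM (0.05, SE 0.13), while in db/m Aass (206 ± 28.5 CPM) and Aldh8a1 were higher.

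Among suppliers of cofactors, 1 of 4 tested genes rose by edgeR, and DESeq2 called 2, Pdxk and Rfk. Pdxk, the kinase that activates vitamin B6, on which Kynu and Aadat depend, went from a lowest, median and highest level of 138, 154 and 228 CPM in db/m to 188, 263 and 335 CPM in db/db, with a log2 fold change of 0.61 (SE 0.13; edgeR adjusted p = 0.00511). The call held in 17 of 17 fits that left out 1 library. Rfk, which makes the flavin precursor of the cofactor used by Kmo, was at 103 ± 7.15 and 121 ± 11.5 CPM (0.23, SE 0.08; edgeR adjusted p = 0.0976).

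Downstream, 0 of 9 tested genes that complete or salvage NAD were called by edgeR and 0 by DESeq2, while 2 (Nmrk1 and Nadk) had an unadjusted p under 0.05, with Slc25a51, the mitochondrial NAD carrier, the most abundant (346 ± 29.5 and 357 ± 66.3 CPM; log2 fold change 0.05, SE 0.11). Nadsyn1, which finishes the route begun by Qprt, was at 14.8 ± 2.85 and 12.4 ± 3.15 CPM (-0.25, SE 0.18, 95% interval -0.62 to 0.11), and Nampt, the salvage enzyme, at 92.7 ± 17.2 and 87.4 ± 27.3 CPM (-0.08, SE 0.18). Among genes that use NAD or drain nicotinamide 0 of 10 were called by edgeR or DESeq2, and 0 had an unadjusted p under 0.05. The most abundant was Sirt7, at 69.6 ± 11.9 and 66.5 ± 14.3 CPM (-0.07, SE 0.13). Nnmt, the gene in the series title, had 41 and 46 counts and did not pass the filter on low counts. In the fit without that filter, Nnmt had a log2 fold change of -0.03 (SE 0.57, 95% interval -1.19 to 1.14) and was not called. Of 4 tested genes of the aryl hydrocarbon receptor and its response (Ahr, Arnt, Cyp1b1 and Tiparp), 0 were called by either tool. None had an unadjusted p under 0.05. The receptor's target Tiparp was at 19.5 ± 3.37 and 16.0 ± 6.55 CPM (-0.28, SE 0.19), and the classical target Cyp1a1 had 0 and 1 counts.

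**Figure D5:**
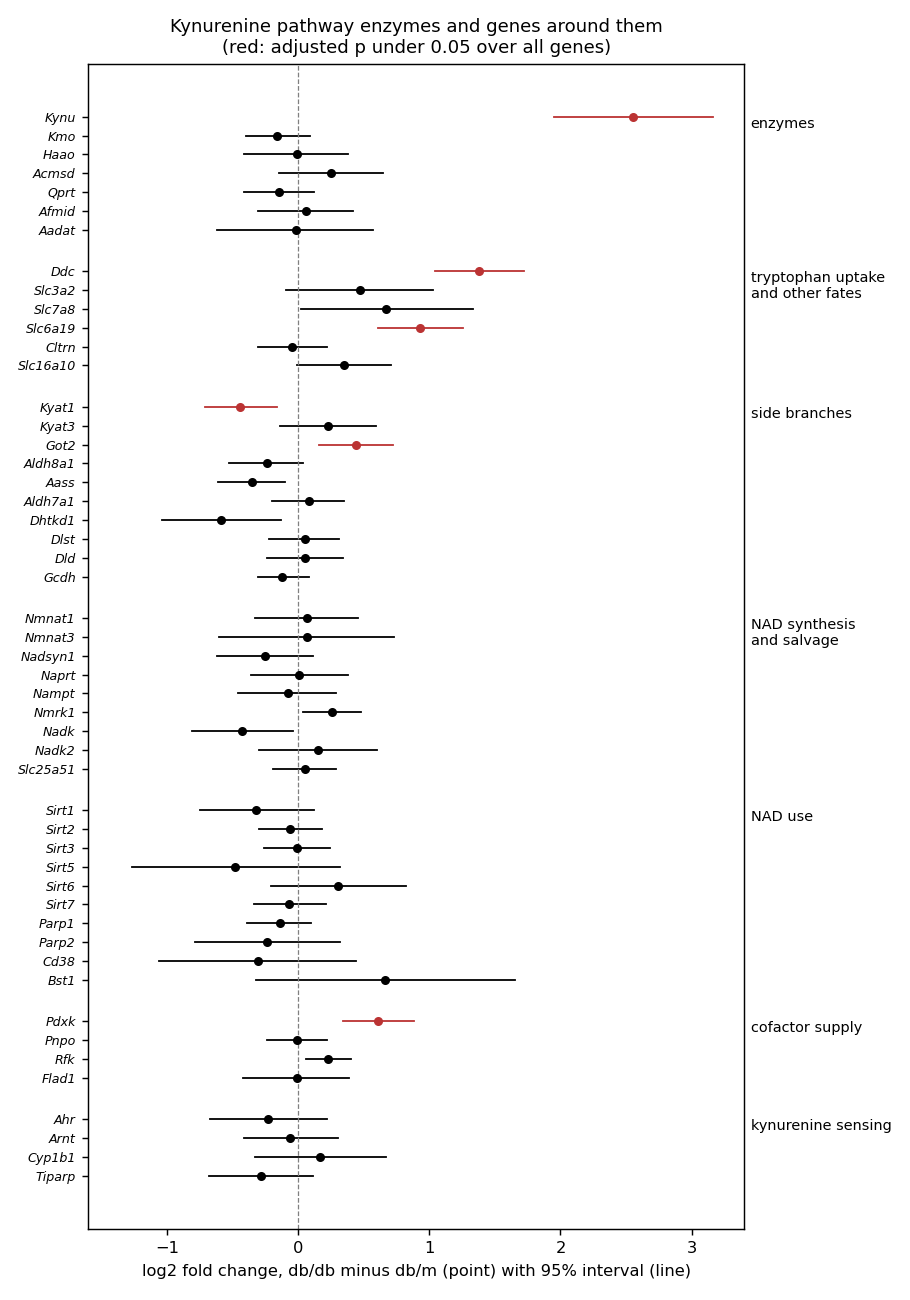
Log2 fold change (db/db minus db/m, points) with 95% intervals (lines) for the 7 tested enzymes and the 43 tested genes around them, by role, with red for genes called over all 12131 genes. Kynu, at 2.55, lies beyond every other gene shown, followed by Ddc at 1.38.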

How the data were processed

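The authors deposited raw counts per gene. The submitters' processing notes name STAR 2.7.3a with HTSeq 2.16.2 and list GRCh38, a human build, although all identifiers are those of mouse genes. For the mouse build, annotation, strand and duplicates, each is not given in the sources used here, so only chromosomes are printed for counted genes. Per the labels' protocols, libraries came from a forward QuantSeq 3′ kit. Reads that HTSeq assigned to no counted feature and ambiguous reads (19.3% and 0.533% of the table) were left out. Symbols were given to 55141 of 55487 identifiers.

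Counts of all 17 libraries were fitted with edgeR 4.0.16 in R 4.3.3 (filterByExpr with a minimum count of 10, TMM, quasi-likelihood F-test, no covariate), with Benjamini-Hochberg adjustment over 12131 genes and a threshold of 0.05. The SE is the fold change divided by the square root of F. Log2 CPM values had 2 as prior count. The fit was tested on simulated data. Any pair of libraries of a group differed by a chi-square per degree of freedom of at least 3.57, so none was a copy. Alternatives were RLE and upper quartile scaling, no filter, DESeq2 1.42.0, robust dispersion, leaving out each library, a replicate block and, added after seeing the data, leaving out 4 libraries.

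The members and lists were chosen with earlier results of these data known. Genes named are the 8 enzymes, called genes of the 6 lists with the most abundant uncalled gene of each, and the 5 genes most like Kynu; others were named after their values were seen. No coordinates of the counted reads were used, and upstream sequences are RefSeq's. One further item of the strain description is not reported here.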

Additional observations from a re-analysis of the deposited data

Results flagged for a closer look

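Among 26 groups of values searched (13 genes in 2 groups), 3 had a highest or lowest library far from the rest of its group, where chance alone flags about 1 in 20. Acmsd was at 163 CPM in db/m replicate 2, against 118 CPM in the next highest db/m library. Qprt was at 48.7 CPM and Afmid at 7.47 CPM in db/m replicate 8, against 63.8 and 13.3 CPM in the next lowest. That library also held the highest summed level of fat markers, 834 CPM. The part of this in the Qprt and Afmid values was not tested.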

How the results depend on the processing

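Kynu stayed higher and called under all 24 alternatives. Its log2 fold change was 2.41 to 2.65 in the 7 that kept all libraries or left out 4. Over the 17 that left out 1 it was 2.43 to 2.72. All of them refit the libraries whose results were known when the enzymes were chosen. They show how far the value depends on processing and add no support for the call. The number of enzymes called was 1 in 23 of 24 and became 2 without the 4 libraries farthest out, Haao being added as lower. In the main fit 7.39% of all genes tested were called. Those libraries held the lowest Haao of db/m and the highest of db/db. In that setting Afmid (-0.24) and Aadat (0.41) changed direction and Qprt lay at -0.31. The number of genes called around the pathway lay between 3 and 10 when each library was left out in turn, and 637 to 1237 genes were called in all, against 897 with every library. Replicate numbers are shared by the groups but nothing says that they pair animals: deviations of same-numbered libraries correlated at -0.454 to 0.212, over 0.1 in 2 of 8, and 0 of 8 db/m libraries correlated best with their own number. With the replicate number as a block 435 genes were called, and Kynu was at 2.65 (SE 0.27). Without the block 897 were. Depth limits Kynu in db/m, Ido2 in db/db and Tdo2 throughout.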
